A study of Mus musculus with 2 samples.

Results

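The genes described here are the components of LIF and gp130 cytokine signalling, chosen by gene symbol: Lif, Il11, Il6st, Lifr, Osmr, Il6ra, Il11ra1, Jak1, Stat3 and Socs3. All 10 were found among the 22740 genes of the deposited expression table. RNA was sequenced from the whole uterus of C57BL/6 mice on day 4 of pregnancy, with 1 library from each of 2 animals. The samples are titled WT1 and WT2 and are called uterus 1 and uterus 2. Both belong to the same group, and no treatment, transgene or second genotype enters the comparison. Levels are the authors' RPKM, which are reads scaled to transcript length and to a total for each library, so that levels of different genes can be set side by side.

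Interleukin-6 family cytokines act through receptors that share the chain gp130, the product of Il6st. LIF joins gp130 to the LIF receptor, and interleukin-11 and interleukin-6 first bind their own alpha chains before gp130 pairs with itself. The receptors carry Janus kinases, which phosphorylate STAT3, and STAT3 in turn raises SOCS3, a protein that shuts the receptor down. In the mouse uterus LIF is known as the gland-derived signal without which the blastocyst does not implant, and interleukin-11 receptor signalling is known for its part in the decidual reaction that follows.

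The message of the pathway was uneven across its steps. The shared receptor chain, the kinase and the transcription factor were abundant. Both cytokines lay near the middle of all 22740 genes, of which 5314 were listed at 0 in both uteri. Among the 13647 genes averaging 1 RPKM or more both lay low, at ranks 11136 for Lif and 12652 for Il11. The order of the 10 mean levels was Il6st, Jak1, Stat3, Il11ra1, Socs3, Osmr, Lifr, Il6ra, Lif and Il11, and on the deposited values it was the same in both uteri. The place of Il11 below Lif and Il6ra in uterus 1 depends on the transcript length used, as given with the ligands. All 10 lay at or above 1 RPKM in both uteri, the level used here to call a gene detected, which 58.4% of all genes reached. Their median was 13.7 ± 0.190 RPKM (SD, n = 2), against 3.26 ± 0.0405 RPKM over all genes, those listed at 0 included.

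Libraries held 3850386 reads in uterus 1 and 4278956 in uterus 2, as recovered from the values. Genes averaging 1 RPKM or more held a median of 118 and 130 reads. Of the 6 markers of uterine identity (Hoxa10, Hoxa11, Hoxd10, Emx2, Esr1 and Pgr), all were detected, with a median of 73.2 ± 6.96 RPKM (SD, n = 2). All 6 markers of stroma, of smooth muscle, of endothelium and of epithelium were detected in both uteri, as were 5 of 6 leukocyte markers. Of the gland markers 4 of the 5 in the table were detected. Of the markers of neighbouring or later tissue, 4 of 6 for ovary and oviduct, 2 of 6 for decidua and 0 of 6 for blastocyst were detected. In whole tissue, fewer cells of a type and less RNA per cell cannot be told apart.

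The 250 bases before the deposited transcript start were read from the genome build of the coordinates, mm9 (NCBIM37), for 3 members: Socs3, because it was the one member with a match to the STAT motif, Lif, the ligand, and Il6st, the highest member. Lower case marks bases outside the motif and capitals mark the match to TTCNNNGAA. The motif reads the same on both strands, so that 1 search covers both. Windows were chr11:117830681-117830930 on the minus strand for Socs3, chr11:4157321-4157570 on the plus strand for Lif and chr13:113254028-113254277 on the plus strand for Il6st, each printed 5′ to 3′ on the strand of the gene.
Socs3: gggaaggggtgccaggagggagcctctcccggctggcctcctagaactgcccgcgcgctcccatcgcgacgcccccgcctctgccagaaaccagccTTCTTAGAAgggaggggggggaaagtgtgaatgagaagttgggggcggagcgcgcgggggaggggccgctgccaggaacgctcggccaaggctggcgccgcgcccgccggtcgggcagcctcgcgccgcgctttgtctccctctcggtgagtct
Lif: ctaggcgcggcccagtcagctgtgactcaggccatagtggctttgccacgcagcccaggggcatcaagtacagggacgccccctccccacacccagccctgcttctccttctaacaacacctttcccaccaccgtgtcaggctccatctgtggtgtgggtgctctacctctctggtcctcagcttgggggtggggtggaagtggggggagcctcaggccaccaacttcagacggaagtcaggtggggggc
Il6st: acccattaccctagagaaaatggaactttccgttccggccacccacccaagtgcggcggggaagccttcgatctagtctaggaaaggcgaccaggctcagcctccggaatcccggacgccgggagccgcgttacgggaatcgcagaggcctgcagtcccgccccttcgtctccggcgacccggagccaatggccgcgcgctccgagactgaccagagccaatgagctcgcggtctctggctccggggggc
The match TTCTTAGAA in Socs3 spanned bases 154 to 146 before the transcript start. Of the 10 members, 1 held the motif, against 6.74% of 22666 promoters of the same length (1528 promoters). The stricter form TTCCNGGAA, which is contained in the first motif, was found in 0 of the 10 members and in 0.949% of all promoters. Among the 65 other pathway genes, 6 promoters (9.23%) held TTCNNNGAA, namely Cish, Gab1, Icam1, Il31ra, Osm and Socs2. In Cish, Icam1, Il31ra and Socs2 the match was also of the stricter form. The members' windows were 50.8% to 71.6% G and C, lowest in Lifr and highest in Socs3. Their median of 64.2% lay above the 55.6% over all promoters and inside the range from the 10th to the 90th percentile (39.2% to 71.2%). For 7 of the 10 members, these 250 bases were identical to a promoter window of the same gene in RefSeq on build GRCm38.p6. A match describes letters in this window and says nothing of binding.

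The ligands were the lowest step. Lif (NM_008501, chromosome 11, 4157571 to 4172517, plus strand), the cytokine itself, lay at 3.16 RPKM in uterus 1 and 3.90 in uterus 2, on 49 and 67 reads. Uterus 2 was the higher, and the 95% counting intervals (exact Poisson) overlapped, from 2.34 to 4.18 and from 3.02 to 4.95 RPKM. With a mean of 3.53 ± 0.518 RPKM (SD, n = 2), Lif ranked 11136 of 22740 genes, at percentile 51.0. Il11 (NM_008350, chromosome 7, 4723980 to 4729743, minus strand), which encodes interleukin-11, lay at 2.15 RPKM in uterus 1 and 1.45 in uterus 2, on an estimated 16 and 12 reads. Here uterus 1 was the higher. The counting intervals ran from 1.23 to 3.49 and from 0.749 to 2.53 RPKM, so the level of Il11 is known only roughly. Those reads assume a transcript of 1944 bases. On the smallest reads that give the same values, 4 and 3, the intervals widen to 0.585 to 5.50 and 0.299 to 4.24 RPKM. For the other 9 members the smallest reads are the reads given. Its mean of 1.80 ± 0.492 RPKM (SD, n = 2) was the lowest among the members, at percentile 44.4. On the deposited values Lif exceeded Il11 1.47-fold in uterus 1 and 2.69-fold in uterus 2. With the longest annotated coding transcript of each (1255 bases for Il11), the order turned in uterus 1, at 3.17 RPKM for Lif and 3.33 for Il11, and held in uterus 2, at 3.91 and 2.25 RPKM. On that length Il11 in uterus 1 also lay above Il6ra, which stayed at 3.20 RPKM.

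**Figure D1:**
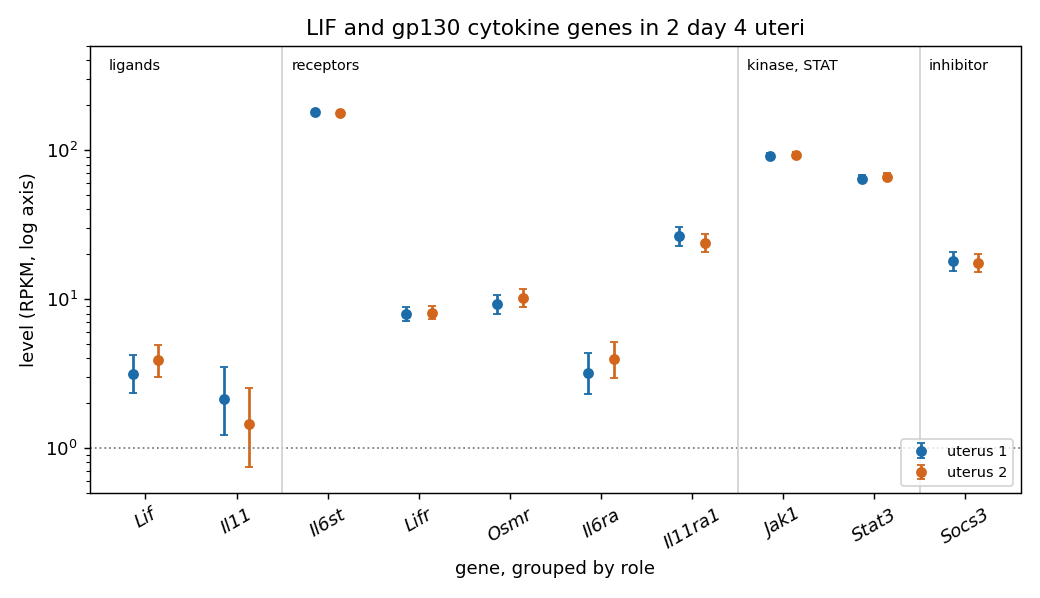
Level of each member in RPKM (log axis) in uterus 1 and uterus 2, grouped by role. Points are single libraries, bars are exact Poisson 95% counting intervals and the dotted line is 1 RPKM. Il6st lies near 179 RPKM in both uteri, Lif between 3.16 and 3.90 RPKM, and only the interval of Il11 in uterus 2, drawn on 12 reads, reaches under the line.

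The shared receptor chain stood far above its partners. Il6st (NM_010560, chromosome 13, 113254278 to 113297068, plus strand) lay at 179.4 RPKM in uterus 1 and 178.2 in uterus 2, on 3751 and 4135 reads. The values nearly coincide, with intervals of 173.7 to 185.3 and 172.8 to 183.7 RPKM. It ranked 223 of 22740 genes, at percentile 99.0.

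Il11ra1 (NM_001163401, chromosome 4, 41707316 to 41716346, plus strand), the alpha chain that binds interleukin-11, was the next receptor at 26.3 and 23.8 RPKM in uterus 1 and uterus 2, on 198 and 199 reads. Uterus 1 was slightly higher, and the intervals overlapped widely. Il11ra1 has a near-identical copy, Il11ra2, and 40.0% of all 50-base stretches of the annotated Il11ra1 coding transcripts also occur in those of Il11ra2. Il11ra2 was listed at 0 in both uteri. How reads that fit both copies were counted is not given in the sources used here, so the split between the copies is uncertain.

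Osmr (NM_011019, chromosome 15, 6763577 to 6824313, minus strand), the receptor chain for oncostatin M, lay at 9.22 RPKM in uterus 1 and 10.2 in uterus 2, on 171 and 209 reads. Lifr (NM_013584, chromosome 15, 7090542 to 7147489, plus strand), the chain that LIF binds, lay at 7.93 and 8.12 RPKM, on 314 and 357 reads. Both Osmr values exceeded both Lifr values, yet the counting intervals of the pair overlapped in each uterus. The 2 genes are neighbours on chromosome 15, on opposite strands and 266228 bases apart. Il6ra (NM_010559, chromosome 3, 89673246 to 89717084, minus strand), the alpha chain for interleukin-6, was the lowest receptor at 3.20 and 3.94 RPKM, on 41 and 56 reads. Its values overlapped those of Lif.

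Set against its partners within each library, Il6st message was 22.6-fold that of Lifr in uterus 1 and 22.0-fold in uterus 2 (mean 22.3 ± 0.487, SD, n = 2). The excess over Osmr was 18.5 ± 1.35-fold, over Il6ra 50.7 ± 7.65-fold and over Il11ra1 7.14 ± 0.467-fold (SD, n = 2 for each). Even the 4 partner chains added together stayed below it, with 3.84 times as much Il6st in uterus 1 and 3.87 times in uterus 2. Lifr in turn exceeded its ligand Lif 2.51-fold and 2.08-fold. Il11ra1 exceeded Il11 12.3-fold and 16.4-fold on the deposited values, with the few Il11 reads given above. With the longest annotated coding transcripts Il11ra1 lay at 25.7 and 23.3 RPKM and Il11 at 3.33 and 2.25, so both folds are smaller. The ratios in this paragraph compare messages per length in whole tissue, where cell types are mixed. They are not ratios of proteins or of chains within a cell.

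Below the receptors, Jak1 (NM_146145, chromosome 4, 100824579 to 100937887, minus strand), a Janus kinase bound to gp130, lay at 91.9 RPKM in uterus 1 and 92.9 in uterus 2, on 1867 and 2095 reads. It ranked 530, at percentile 97.7. The Jak1 span overlaps that of Raver2 on the opposite strand, which lay at 7.12 and 6.36 RPKM. The use of strand in counting is not given in the sources used here. Stat3 (NM_213659, chromosome 11, 100748124 to 100800825, minus strand), the transcription factor of the pathway, lay at 64.4 RPKM in uterus 1 and 66.3 in uterus 2, on 1108 and 1267 reads, and ranked 834 (percentile 96.3). For each of these genes the uteri differed by less than the width of the counting intervals. On the deposited values Jak1 message was 1.41 ± 0.0189 times Stat3 message, and Il6st message 1.94 ± 0.0243 times Jak1 message (SD, n = 2). These SDs cover the 2 libraries and not the choice of transcript length. With the longest annotated coding transcripts the means become 99.8 RPKM for Jak1 and 48.5 for Stat3, so the first ratio is larger.

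Socs3 (NM_007707, chromosome 11, 117827401 to 117830680, minus strand), the feedback inhibitor of gp130, lay at 17.9 RPKM in uterus 1 and 17.5 in uterus 2, on 187 and 203 reads. It ranked 4423, at percentile 80.6. On the deposited values its message was 0.278 times that of Stat3 in uterus 1 and 0.264 times in uterus 2. With the longest annotated coding transcripts the means become 18.9 RPKM for Socs3 and 48.5 for Stat3, so this ratio is larger.

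Between neighbours in the order of levels, the 2 values of the higher gene lay above both of the lower gene in 8 of 9 pairs. The exception was Il6ra and Lif, with means of 3.57 and 3.53 RPKM. Counting intervals were apart in both uteri for 6 of the 9 pairs: Il6st and Jak1, Jak1 and Stat3, Stat3 and Il11ra1, Il11ra1 and Socs3, Socs3 and Osmr, and Lifr and Il6ra. For Lif and Il11 they were apart in 1 uterus (in 0 on the smallest reads of Il11), and for Osmr and Lifr and for Il6ra and Lif in 0.

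The transcript length behind each value could be read from the values, for Il11 with a factor set by the nearest annotated length. It was 10333 bases for Lifr, 5452 for Il6st, 5299 for Jak1, 4835 for Osmr, 4487 for Stat3, 4040 for Lif, 3343 for Il6ra, 2724 for Socs3, 1961 for Il11ra1 and 1944 for Il11. For Il11, Osmr, Il6ra, Jak1, Stat3 and Socs3 it equals an annotated GENCODE M1 transcript, taken as it is or with its ends moved to the deposited start and end. For Il11ra1, Lif, Il6st and Lifr it differs from the nearest such length by 8, 14, 245 and 678 bases. With the longest annotated coding transcript instead, the mean of Il11 becomes 2.79 RPKM. That of Stat3 becomes 48.5 RPKM on a transcript of 6042 bases, still below Jak1 and above Il11ra1.

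A further question was how closely the 2 animals resembled each other for these genes. A gene was called apart at a 2-fold difference on the scale of log2(RPKM + 0.1), among genes averaging 1 RPKM or more. No member was called (0 of 10), where 2.6% of 13647 genes were. The members' log2 ratios of uterus 2 over uterus 1 ran from -0.54 for Il11 to 0.29 for Lif, with a median of 0.02, against a median of 0.0007 over all genes. Of the 10, 6 were higher in uterus 2 and 4 in uterus 1. These directions are a description only.

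A two-sided exact binomial test compared the reads of both libraries; it concerns these libraries and not a condition. With Benjamini-Hochberg adjustment over 15153 genes, it called 0 of the 10 members at an adjusted p under 0.05, where 4.87% of all genes were called. At an unadjusted p under 0.05 it also called 0 members, where 15.8% of all genes passed. The lowest unadjusted p among the members in this exact test was 0.306, for Lif (adjusted p 0.720). A p that misses the threshold does not show equal levels, and the intervals differ greatly in width. The ratio of uterus 2 to uterus 1 was 0.993 for Il6st, with a 95% exact interval of 0.9499 to 1.04. For Stat3 it was 1.03 (0.9496 to 1.12) and for Jak1 1.01 (0.949 to 1.08). For Lif it was 1.23 (0.840 to 1.82) and for Il11 0.676 (0.292 to 1.52). A 2-fold difference lies outside the interval of every member except Il11, whose interval includes a level in uterus 2 under 1/2 of that in uterus 1. On its smallest reads the interval of Il11 is 0.0990 to 3.99, which includes a 2-fold difference in either direction.

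**Figure D2:**
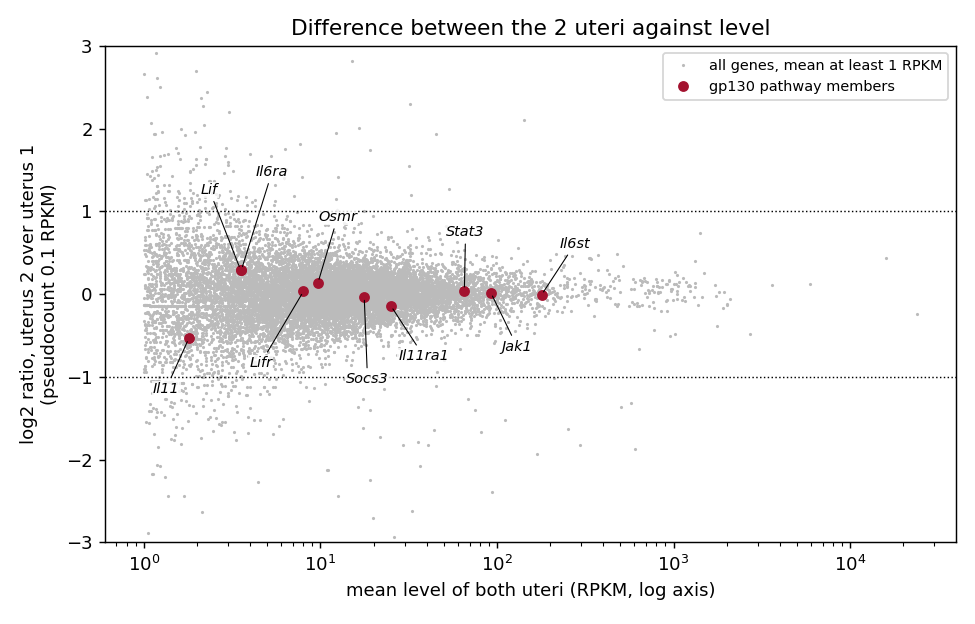
Log2 ratio of uterus 2 over uterus 1 (pseudocount 0.1 RPKM) against mean level in RPKM (log axis). Grey points are the 13647 genes averaging 1 RPKM or more, of which 27 lie beyond the plotted range of 3 in either direction, and red points are the members. Dotted lines mark a 2-fold difference, and all 10 members lie between them, from -0.54 for Il11 to 0.29 for Lif.

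**Figure D3:**
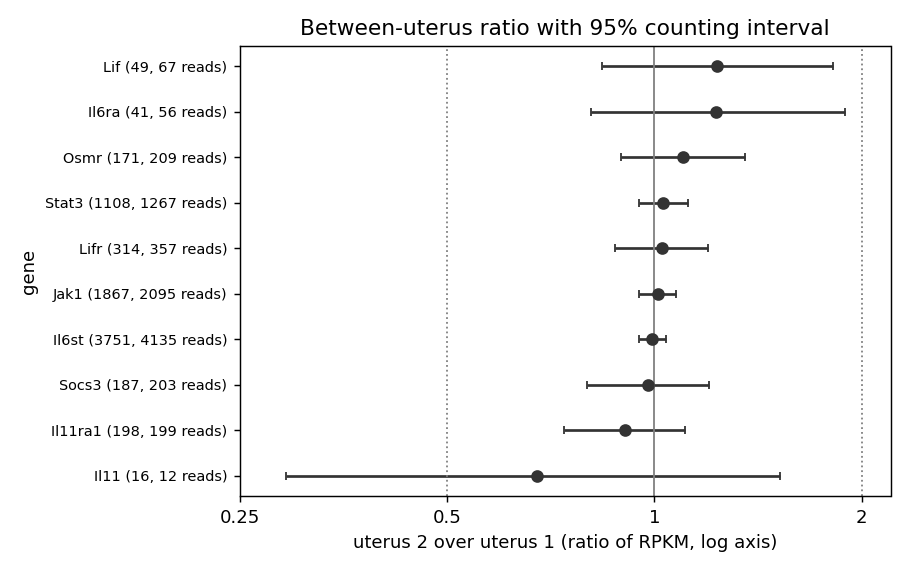
Ratio of RPKM in uterus 2 to uterus 1 for each member (log axis), with its exact 95% counting interval and the reads in each uterus. Dotted lines mark 2-fold differences. The interval is narrowest for Il6st (0.9499 to 1.04) and widest for Il11 (0.292 to 1.52, drawn on 16 and 12 reads), and every interval includes 1.

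Gland markers are given beside Lif because glands are its known source. Foxa2, a transcription factor of the uterine glands, lay at 3.07 RPKM in uterus 1 and 5.19 in uterus 2, on 25 and 47 reads. Spink3, a secreted gland product, lay at 46.4 and 71.8 RPKM, on 75 and 129 reads. The 4 gland markers averaging 1 RPKM or more (Foxa2, Spink3, Prss29 and Sox9) had higher values in uterus 2, with a median log2 ratio of 0.60, where 6842 of 13647 genes had higher values in uterus 2, with a median of 0.0007. Of the 5 in the table, 0 passed the exact binomial test after Benjamini-Hochberg adjustment. The summed level of these 5, Prss28 included, was 54.9 RPKM in uterus 1 and 84.8 in uterus 2, most of it from Spink3, and none of them was at 0 in either uterus. The 4 ovary and oviduct markers averaging 1 RPKM or more had a median log2 ratio of 0.49. The 6 epithelial markers had a median of 0.05, with 3 higher in each uterus. The exact binomial test called 2 of them (33.3%, beside 4.87% of all genes), in opposite directions: Krt18 at 70.4 and 94.3 RPKM (adjusted p 0.000653) and Cldn4 at 11.4 and 5.19 RPKM (adjusted p 0.00222). The reads of Krt18, 378 and 562, assume a transcript of 1400 bases, against smallest possible reads of 189 and 281. The marker genes in this paragraph were picked out with their values known. The part of gland content in the difference of Lif was not tested.

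The rest of the pathway was described with lists of genes by role, 65 genes in all, of which 54 were detected in both uteri. Of the 9 other ligands and ligand partners, 3 were detected, with a list median of 0.762 ± 0.133 RPKM (SD, n = 2). Ctf1, which encodes cardiotrophin 1, had the highest mean, with 6.59 RPKM in uterus 1 and 5.59 in uterus 2, on 34 and 32 reads, and so lay above Lif in both. Clcf1, another gp130 cytokine, lay at 3.19 and 6.32 RPKM, on 10 and 22 reads, a difference that the exact binomial test did not call (adjusted p 0.392). The third was Ctf2, at 1.16 and 2.09 RPKM on 4 and 8 reads, named after its values were seen. The reads of Ctf2 and Clcf1 assume transcripts of 900 and 818 bases. The smallest possible reads are 1 and 2 for Ctf2 and 5 and 11 for Clcf1.

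Il6 itself lay at 0.720 RPKM in uterus 1 on 3 reads and was listed at 0 in uterus 2. Osm, which encodes oncostatin M and lies 16541 bases from Lif on chromosome 11, lay at 0.410 and 0.123 RPKM on 3 and 1 reads. Cntf lay at 0.433 and 0.390 RPKM on 2 reads in each. Il27 had the lowest mean of the list and was listed at 0 in uterus 1 and at 0.333 RPKM on 1 read in uterus 2. Thus the receptor chains Osmr and Il6ra had more message per length than their own ligands Osm and Il6 in both libraries, although levels on 3 reads or fewer are barely above the limit of detection.

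Of the 4 other receptor chains, 2 were detected. Il27ra, the interleukin-27 receptor, was the highest at 2.06 RPKM in uterus 1 and 3.09 in uterus 2, on 21 and 35 reads. Il31ra, which pairs with OSMR for interleukin-31, lay at 1.85 and 1.86 RPKM and is named after its values were seen. Cntfr, the alpha chain for ciliary neurotrophic factor, lay at 0.345 and 0.104 RPKM on 3 and 1 reads. Every one of these lay below Il6ra, the lowest receptor among the members, in both uteri.

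All 9 other Janus kinases and STATs were detected, with a list median of 11.5 ± 0.659 RPKM (SD, n = 2). Jak2 was the highest at 59.7 RPKM in uterus 1 and 74.0 in uterus 2, on 1152 and 1585 reads. It was the 1 of 9 genes of this list (11.1%, beside 4.87% of all genes) that the exact binomial test called, 1.24-fold higher in uterus 2 (95% interval 1.15 to 1.34, adjusted p 3.13e-06). Jak1 was 1.54 times Jak2 in uterus 1 and 1.25 times in uterus 2. Tyk2, the third kinase that gp130 uses, lay at 8.40 and 8.97 RPKM, and Jak1 exceeded it 10.6 ± 0.409-fold (SD, n = 2).

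Among the STATs, Stat3 exceeded Stat5b 5.67 ± 0.205-fold and Stat5a 9.67 ± 1.55-fold (SD, n = 2 for each). These folds hold for the deposited values, and the mean of Stat3 is 48.5 RPKM on its longest annotated coding transcript. Stat6, named after its values were seen, was the highest of the other STATs at 25.2 RPKM in uterus 1 and 25.9 in uterus 2. Stat3 thus stood nearer to Stat6 than to Stat5b or Stat5a. Stat5a lay at 7.51 RPKM in uterus 1 and 6.16 in uterus 2, and Stat5b at 11.1 and 12.0 RPKM. Stat4 was the lowest of the list at 1.14 and 2.60 RPKM, on 13 and 33 reads. It was the one gene of the list at least 2-fold apart, with a log2 ratio of 1.13, and the exact binomial test did not call it (adjusted p 0.137).

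All 4 adaptors were detected. Shc1 was the highest at 53.0 RPKM in uterus 1 and 50.9 in uterus 2, and Gab1 the lowest at 12.1 and 14.9 RPKM. Ptpn11, the phosphatase SHP2 that links gp130 to the MAP kinases and binds the same site of gp130 as SOCS3, lay at 33.0 and 32.3 RPKM. It thus lay above Socs3 in both uteri.

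Of the 13 other inhibitors, all were detected, with a median of 12.2 ± 0.709 RPKM (SD, n = 2), and 0 passed the exact binomial test after adjustment. Socs2 was the highest at 19.9 RPKM in uterus 1 and 19.2 in uterus 2, and Cish, a further member of the SOCS family, the lowest at 3.98 and 3.37 RPKM. Socs1, the member closest to Socs3 in mode of action, lay at 5.06 and 5.09 RPKM, so Socs3 exceeded it 3.54-fold and 3.44-fold. Socs3 therefore lay between Socs2 and Socs1 in both uteri.

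**Figure D4:**
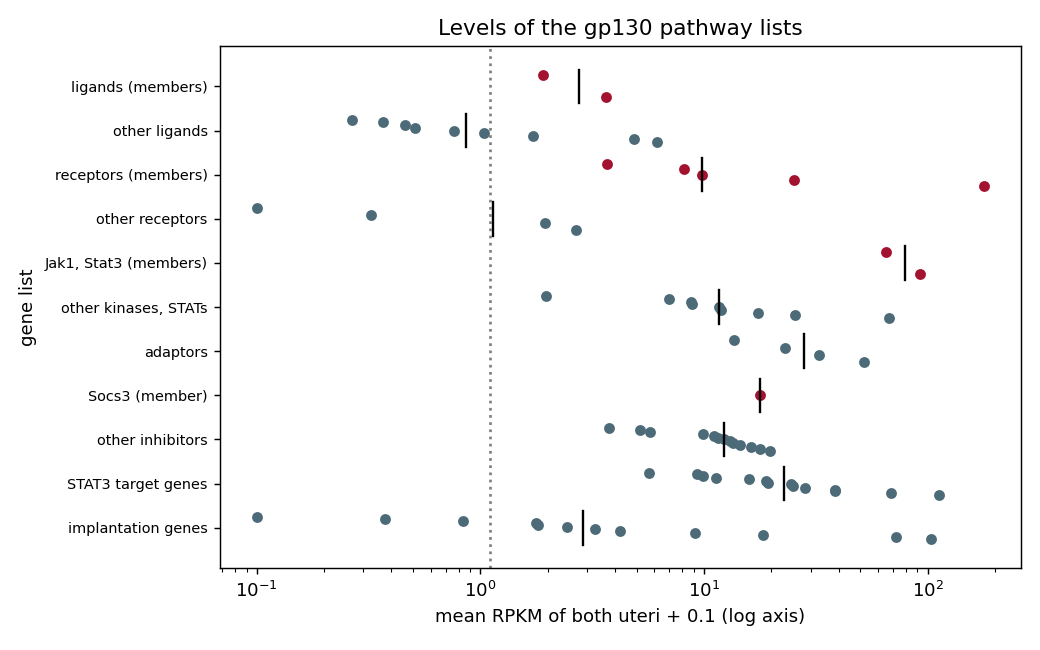
Mean RPKM of both uteri plus 0.1 (log axis) for every gene of each list, with the list's median as a black bar and members in red. The dotted line is 1 RPKM. The other ligands have a median of 0.762 RPKM, whereas all 9 other kinases and STATs and all 13 other inhibitors lie to the right of the line.

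Genes known in other tissues as STAT3 targets were described as a further list. All 14 were detected, with a median of 22.6 ± 1.49 RPKM (SD, n = 2). Hif1a, the hypoxia factor, was the highest at 102.7 RPKM in uterus 1 and 122.1 in uterus 2, and Fos the lowest at 3.86 and 7.30 RPKM on 31 and 65 reads. Of the 14, 10 had higher values in uterus 2 and 4 in uterus 1, where the 13647 genes averaging 1 RPKM or more split into 6842 and 6805. The exact binomial test called 2 of the 14 (14.3%, beside 4.87% of all genes), both higher in uterus 2. With more reads the test calls smaller differences, so such shares do not show that a list is enriched. Hif1a was 1.19-fold higher on 1874 and 2474 reads (95% interval 1.12 to 1.26, adjusted p 1.81e-06 in the exact binomial test). Cebpd, picked out once its values were known, lay at 15.7 and 22.9 RPKM, 1.46-fold higher (1.17 to 1.82, adjusted p 0.0163). Its reads, 136 and 220, assume a transcript of 2260 bases. The smallest reads that give the same values are 34 and 55, on which the interval is wider, so its call depends on that length. Socs3, which is also a STAT3 target, was not among the called genes, with a ratio of 0.978 and an interval of 0.798 to 1.20.

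The last list held genes linked to Lif at implantation, of which 9 of 12 were detected. Esr1, the oestrogen receptor, through which oestrogen raises Lif on this day, was the highest at 106.9 RPKM in uterus 1 and 99.2 in uterus 2. Ereg, an epidermal growth factor family ligand, was listed at 0 in both uteri. Bmp2, a stromal signal of the decidual reaction, lay at 2.39 and 1.03 RPKM on 23 and 11 reads. It was the one gene of this list at least 2-fold apart, with a log2 ratio of -1.14, and the exact binomial test did not call it (adjusted p 0.217). The test called 1 of the 11 genes with enough reads (9.09%, beside 4.87% of all genes), Pgr, the progesterone receptor, named after its values were seen. Pgr lay at 77.5 RPKM in uterus 1 and 66.4 in uterus 2, on 2048 and 1946 reads. Its ratio was 0.856 (95% interval 0.804 to 0.911, adjusted p 8.00e-05 in the exact binomial test). Of the 58 genes with enough reads among the 65, 4 (6.90%) were called, beside 4.87% of all genes. The 4 include Cebpd, whose call depends on the transcript length assumed for its reads. Of the 54 averaging 1 RPKM or more, 2 (3.70%) were at least 2-fold apart, beside 2.6% of all genes.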

How the data were processed

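The data are 2 RNA sequencing libraries of whole uterus on day 4 of pregnancy, 1 per animal. Per the labels and the series' design text, RNA was extracted with TRIzol, purified by its poly-A tail and made into TruSeq libraries, and the authors normalized the deposited values to RPKM. TopHat, edgeR and build mm9 are named in the submitters' processing notes. Versions, annotation and use of strand are not given in the sources used here. The 22740 genes have identical values in both deposited tables.

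The members and gene lists were chosen with earlier results of these data known. Genes named by rule are all members and, from each list of pathway genes, the highest and the lowest by mean, those at least 2-fold apart and the close relatives of members, of which 1 is not reported here. The deposited starts count from 0, and all coordinates printed here count from 1.

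Whole reads were recovered from the RPKM values. Single-exon genes gave what 1 read is worth (scaling totals 3834174 and 4256101). These totals equal neither the sums of the recovered reads (3850386 and 4278956) nor those of the smallest possible reads (3487503 and 3874963), and how the authors set them is not given in the sources used here. Then the smallest whole reads and whole transcript length that give both values were found for all 17426 genes above 0, with a relative tolerance of 1e-10 for the ratio of reads and 1e-05 bases for the length. A common factor, which was 1 for 84.7% of genes, was set by the nearest annotated GENCODE M1 length. For Il11 this set the reads to 16 and 12, against smallest possible reads of 4 and 3. The recovery and the test were run on simulated data. That run cannot decide the common factor of a real gene such as Il11, which only the nearest annotated length set. Its rate of false calls is not carried over to these libraries, which differ beyond sampling noise.

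Detection was 1 RPKM in both uteri. Log2 ratios used a pseudocount of 0.1 RPKM, which understates the change of low genes, and a filter at a mean of 1 RPKM. The exact binomial test took genes with at least 6 reads in sum. Intervals (95%, exact Poisson for levels, exact Clopper-Pearson for ratios) cover counting error alone. How PCR duplicates were handled is not given in the sources used here. The chi-square between libraries was 3.53 per gene over 13453 genes, so they differ beyond sampling noise. A listed 0 is not read as absence. Python 3.11.15, scipy 1.17.1 and pandas 2.3.3 were used. Alternatives were other pseudocounts, filters and detection levels, the TPM scale, centring, either library alone and the smallest possible reads.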

Additional observations from a re-analysis of the deposited data

How the results depend on the processing

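With 1 library per animal in 1 group, no condition was tested, and differences between animals, dissection and library preparation cannot be told apart. Depth limits Il11, Lif and Il6ra most. The 10 members were detected at 0.5 RPKM and on the TPM scale, and 9 of them at 2 RPKM, where Il11 dropped out with 1.45 RPKM in uterus 2. No member was 2-fold apart, and none changed the sign of its log2 ratio, with a pseudocount of 0.01 or 1, after centring or on the TPM scale. Filters cannot change a ratio, and the filter at 5 RPKM kept 7 members, without Lif, Il11 and Il6ra. The median level of the members became 32.4 on the TPM scale, which changes the unit and so moves every level by construction. With the smallest possible reads, the exact binomial test called 581 genes in place of 738, and again 0 members. Detected genes rose from 3 to 5 for the other ligands at 1 TPM and fell from 2 to 1 for the other receptors at 2 RPKM. The length of the longest annotated coding transcript, an alternative chosen after seeing the data, moved 6 members by more than their SD. The values of Il11 and Stat3 are given in the report. For means of 2 libraries, either library alone lies within 1 SD by construction, which says nothing about stability. No paired analysis was possible because both libraries belong to the same group.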
